A study of Mus musculus with 16 samples.

Results

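Collagen and elastin fibres hold together because their lysine side chains are oxidised and joined outside the cell. The transcripts described here are 10 genes chosen by name for that pathway: the lysyl oxidases Lox, Loxl1, Loxl2, Loxl3 and Loxl4, the lysyl hydroxylases Plod1, Plod2 and Plod3, and the prolyl 4-hydroxylase subunits P4ha1 and P4ha3. Each was found by its Ensembl gene ID, and they are 10 of 57186 gene IDs in the count table. All 10 passed the filter on low counts that left 15206 genes to test. Left ventricle was taken from C57/BL6N mice of 2 genotypes and 2 operations. The knockout (cKO) lacks Tfeb, a transcription factor of lysosomal genes, in cardiomyocytes, and the controls carry the label WT. TAC, transverse aortic constriction, is a surgical narrowing that makes the left ventricle pump against raised pressure, and sham is the operation without constriction. The 4 combinations of genotype and operation held 4 libraries each, 16 in all, which the series describes as biological replicates. The Cre driver, age, sex and time after surgery are not given in the sources used here.

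As background, prolyl 4-hydroxylase modifies proline in the endoplasmic reticulum and so makes the collagen triple helix stable at body temperature, while lysyl hydroxylases modify lysine there and decide which kind of crosslink can form later. Lysyl oxidases are copper enzymes that act on the secreted fibre and turn lysine and hydroxylysine into aldehydes that condense into crosslinks. Fibroblasts are the main source of fibrillar collagen in the heart, and more heavily crosslinked collagen goes with a stiffer ventricle. P4ha1 and P4ha3 prepare collagen for assembly and form no crosslink themselves.

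The libraries held 12946878 to 16347388 counts. Tfeb, the targeted gene, was at 30.9, 37.4, 40.1 and 37.6 CPM (counts scaled to a common library total with TMM factors) in WT sham and at 10.0, 9.12, 9.68 and 13.0 CPM in cKO sham, and it fell by 1.80 on the log2 scale (SE 0.20, edgeR adjusted p = 0.000604). After TAC it was at 40.0, 34.6, 20.6 and 21.1 CPM in WT and at 14.7, 13.8, 13.0 and 9.37 CPM in cKO, so every cKO library lay below every WT library. The 6 cardiomyocyte markers summed to 27723 to 58780 CPM, none of them at 0 in any library. Transcripts of atrial muscle were high in WT sham replicate 3 and WT TAC replicate 4: Myl7, the atrial myosin light chain, reached 871 CPM in the WT sham group and 329 CPM in the WT TAC group, against at most 3.36 CPM in any cKO library. Calls of the 10 members that change without these 2 libraries are given with and without them.

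Upstream sequence was available for 5 members, as the 250 bases before the annotated start in RefSeq (build GRCm38.p6). Lox, Loxl1, Loxl2, Loxl3 and Plod2 were not used here. These windows were searched on both strands for CACGTG, the core of the E-box that Tfeb-family factors bind, for ACGTG, the core of the hypoxia response element that is also contained in CACGTG, and for CAGAC, a SMAD-type element. None of the 5 windows held CACGTG, which occurred in 6.02% of 32851 windows of this length. ACGTG, found in 16.6% of all windows, occurred once each in Plod3 and P4ha1, and CAGAC, found in 42.2%, occurred once each in Loxl4 and Plod1. The windows of 4 members are shown. P4ha1 and P4ha3 were chosen as sister subunits with different values after TAC, and Loxl4 and Plod3 as higher in cKO over both operations. Plod1 was also higher in cKO over both operations, and its window is not shown. Capitals mark the matched letters on either strand, and P4ha3 held none of the 3 motifs. A match is a description of these letters and says nothing about binding.
P4ha1 (chr10:59323046-59323295, plus strand): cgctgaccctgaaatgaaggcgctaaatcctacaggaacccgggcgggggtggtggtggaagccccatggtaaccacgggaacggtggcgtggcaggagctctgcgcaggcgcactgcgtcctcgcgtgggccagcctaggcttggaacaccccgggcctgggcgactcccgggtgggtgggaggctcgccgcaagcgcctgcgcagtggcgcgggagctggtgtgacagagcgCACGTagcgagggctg
P4ha3 (chr7:100285270-100285519, plus strand): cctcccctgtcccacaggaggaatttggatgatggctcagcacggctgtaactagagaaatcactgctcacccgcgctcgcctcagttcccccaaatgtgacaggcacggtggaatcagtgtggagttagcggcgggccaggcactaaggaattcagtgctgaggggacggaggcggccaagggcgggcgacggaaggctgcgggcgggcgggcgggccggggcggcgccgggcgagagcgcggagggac
Loxl4 (chr19:42612807-42613056, minus strand): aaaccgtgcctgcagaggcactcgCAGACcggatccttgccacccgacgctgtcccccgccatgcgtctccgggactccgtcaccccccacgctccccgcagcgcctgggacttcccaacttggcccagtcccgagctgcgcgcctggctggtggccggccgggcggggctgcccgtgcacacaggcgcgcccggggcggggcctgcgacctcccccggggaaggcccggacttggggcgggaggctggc
Plod3 (chr5:136986769-136987018, plus strand): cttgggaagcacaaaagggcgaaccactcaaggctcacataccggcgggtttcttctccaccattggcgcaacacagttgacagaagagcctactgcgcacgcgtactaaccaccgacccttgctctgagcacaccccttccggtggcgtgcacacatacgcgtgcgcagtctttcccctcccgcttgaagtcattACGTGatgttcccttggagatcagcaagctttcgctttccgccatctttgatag

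Most of these transcripts were higher after TAC in both genotypes. The 10 members were chosen with earlier results of these data known, so the shares over all genes beside their counts are description only. P4ha2, a sister of P4ha1 and P4ha3 that is not a member, passed after TAC in neither genotype. In WT, 8 of the 10 members rose after TAC and none fell, where 15.8% of all tested genes were called in either direction, 9.7% rising and 6.14% falling (edgeR quasi-likelihood test, Benjamini-Hochberg adjusted p under 0.05 over all tested genes). In cKO, 8 of the 10 rose and none fell, where 26.5% of all genes were called, 14.2% rising and 12.4% falling. The median log2 fold change of the members was 1.24 in WT and 1.33 in cKO, beside -0.015 and 0.0034 over all tested genes. All 5 lysyl oxidases rose in both genotypes. The hydroxylases were less uniform: Plod2 and P4ha1 missed the threshold in WT, and Plod1 and P4ha1 missed it in cKO. The 4 and 4 libraries did not overlap for the 8 members that rose in each genotype, against 11% of all genes higher and 8.44% lower without overlap in WT, and 15.5% higher and 13.8% lower in cKO.

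The order of group means was the same for 9 of the 10 members, from WT sham as the lowest over cKO sham and WT TAC to cKO TAC, and Plod2 differed in having cKO sham below WT sham. Within that order many neighbours were not separate. WT sham and cKO sham did not overlap for 4 of the 9 (Lox, Loxl4, Plod1 and Plod3). Between these 2 groups 4% of tested genes separated upward in cKO and 3.59% downward. WT TAC and cKO TAC did not overlap for 2 of all 10 (Loxl3 and Loxl4), beside 4.89% separating upward and 5.11% downward. Between cKO sham and WT TAC 5 of the 9 did not overlap (Lox, Loxl1, Loxl2, Loxl3 and P4ha3). That pair differs in both genotype and operation, and its share over all genes was not computed. The 5 therefore has no reference, and the order of means is description only.

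**Figure D1:**
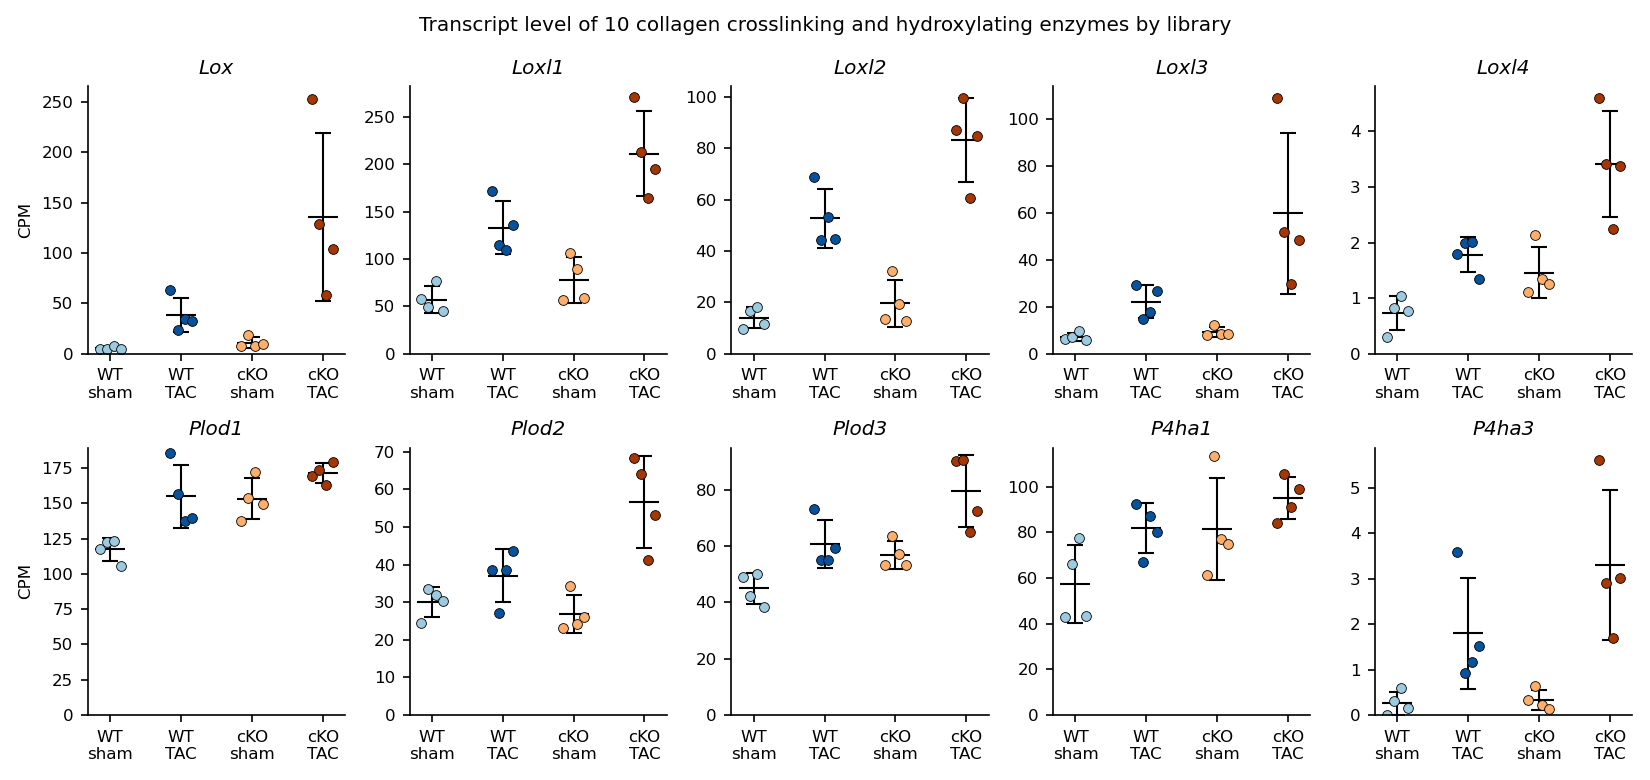
CPM of each of the 10 enzymes (vertical axis, linear, from 0) in the 16 libraries; points are libraries, the long bar is the group mean and the short bars are 1 SD (n = 4). The lysyl oxidases and P4ha3 stand apart between sham and TAC in both genotypes, and the TAC and sham points of P4ha1 overlap in both.

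Lox, the founding lysyl oxidase, rose after TAC in both genotypes. It was at 4.36, 4.70, 7.24 and 4.10 CPM in WT sham and at 63.2, 23.8, 34.3 and 32.8 CPM in WT TAC. Every WT TAC library was above every WT sham library, and the rise was 7.54-fold (log2 fold change 2.91, SE 0.50, adjusted p = 0.00214). In cKO sham it was at 7.56, 18.6, 7.82 and 9.75 CPM, with replicate 2 the highest, and in cKO TAC at 254, 129, 57.8 and 104 CPM, with replicate 1 the highest. Those groups did not overlap either, and the rise was 12.4-fold (log2 fold change 3.63, SE 0.48, adjusted p = 0.000212). Its means were 5.10 ± 1.45 CPM after sham and 38.5 ± 17.1 CPM after TAC in WT, and 10.9 ± 5.22 and 136 ± 83.7 CPM in cKO (SD, n = 4). WT TAC and cKO TAC overlapped, since the lowest cKO TAC library lay below the highest WT TAC library.

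Loxl1, which acts on elastin and is held at elastic fibres by fibulin-5, was the most abundant lysyl oxidase. It was at 57.7, 48.7, 76.9 and 44.4 CPM in WT sham and at 171, 115, 109 and 136 CPM in WT TAC, a 2.33-fold rise (log2 fold change 1.22, SE 0.23, adjusted p = 0.00262). In cKO it went from 56.7, 107, 89.5 and 59.1 CPM to 271, 213, 164 and 195 CPM, a 2.71-fold rise (log2 fold change 1.44, SE 0.23, adjusted p = 0.000472). Neither genotype showed overlap between operations, while cKO TAC and WT TAC overlapped.

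Loxl2, a secreted oxidase with scavenger receptor domains that also crosslinks basement membrane collagen, was at 9.56, 16.4, 18.2 and 11.7 CPM in WT sham and at 68.8, 44.2, 53.1 and 44.7 CPM in WT TAC (log2 fold change 1.92, SE 0.29, adjusted p = 0.000686). In cKO it was at 13.5, 32.4, 19.4 and 12.7 CPM after sham and at 87.3, 99.8, 60.6 and 84.8 CPM after TAC (log2 fold change 2.09, SE 0.29, adjusted p = 0.000195). The operations were separate in both genotypes, and its rises in WT and cKO differed by 0.17 (95% interval -0.70 to 1.04).

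Loxl3, a close relative of Loxl2, was at 6.27, 7.24, 9.61 and 5.72 CPM in WT sham and at 29.3, 14.6, 17.8 and 26.8 CPM in WT TAC, a 3.07-fold rise (log2 fold change 1.62, SE 0.37, adjusted p = 0.00957). In cKO it was at 8.02, 12.2, 8.19 and 8.51 CPM after sham and at 109, 52.0, 29.6 and 48.7 CPM after TAC, a 6.47-fold rise (log2 fold change 2.69, SE 0.36, adjusted p = 0.00019). All 4 cKO TAC libraries lay above all WT TAC libraries, the lowest of them by a small margin. Loxl4, the least abundant oxidase, had 4 to 14 raw counts per library in WT sham and 36 to 73 in cKO TAC. Relative to its level, its counting error is thus the largest of the 5. It rose 2.40-fold in WT (log2 fold change 1.26, SE 0.34, adjusted p = 0.0171) and 2.33-fold in cKO (log2 fold change 1.22, SE 0.30, adjusted p = 0.00574).

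**Figure D2:**
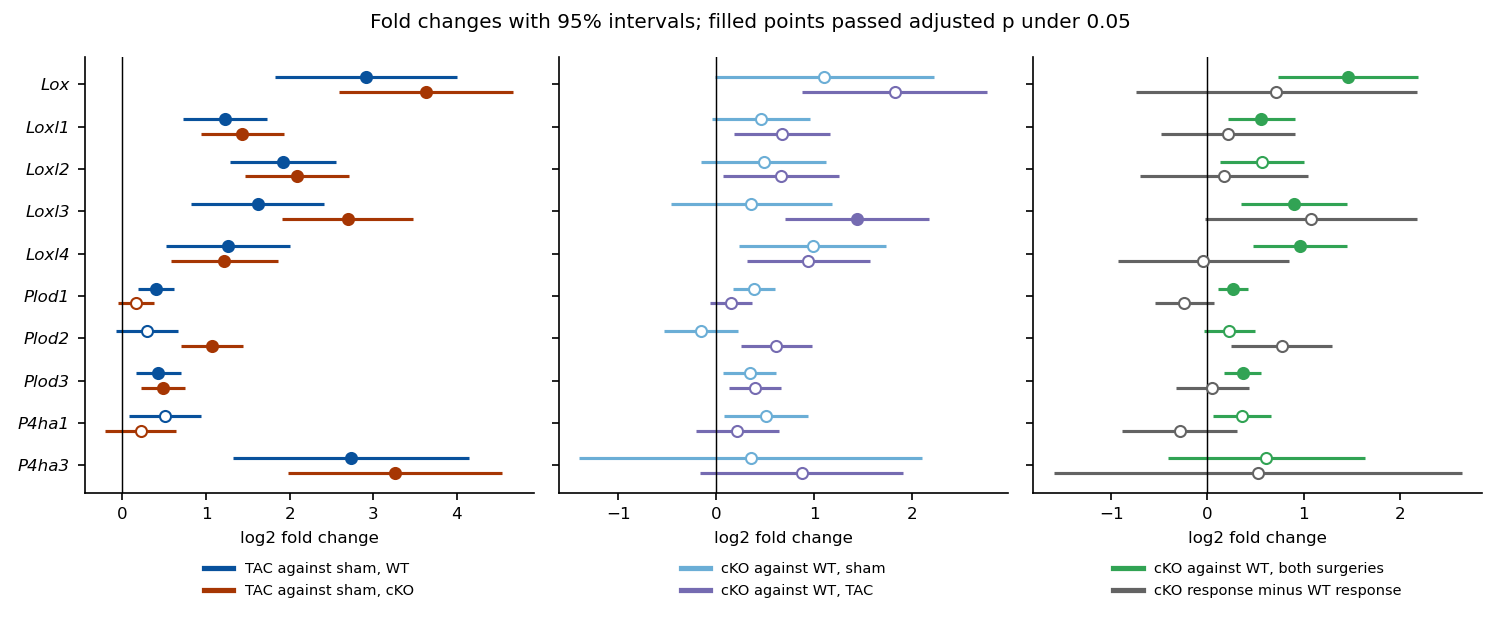
Log2 fold changes from edgeR with 95% intervals for the 10 enzymes: TAC against sham in each genotype (left), cKO against WT after each operation (middle), and cKO against WT averaged over both operations with the difference between the TAC responses (right). Filled points passed an adjusted p of 0.05; Lox and P4ha3 have the largest TAC responses, and only Loxl3 passed in the middle panel.

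Plod2 hydroxylates lysines in the collagen telopeptides, the step that leads to the most stable, pyridinoline-type crosslinks. It was at 24.5, 33.6, 31.8 and 30.4 CPM in WT sham and at 38.6, 27.0, 38.7 and 43.7 CPM in WT TAC, and these groups overlapped (log2 fold change 0.30, SE 0.17, adjusted p = 0.243). In cKO it was at 23.2, 34.4, 24.3 and 26.0 CPM after sham and at 68.2, 64.2, 41.2 and 53.1 CPM after TAC, with no overlap, and it rose 2.10-fold (log2 fold change 1.07, SE 0.17, adjusted p = 0.000313). Among the members it had the smallest unadjusted p for a difference between the TAC responses, described further on.

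Plod1 hydroxylates lysines in the helical part of the collagen chain. It was at 118, 123, 124 and 106 CPM in WT sham and at 186, 157, 137 and 140 CPM in WT TAC, a 1.32-fold rise with no overlap (log2 fold change 0.40, SE 0.10, adjusted p = 0.0111). Without WT TAC replicate 1, the highest library, its log2 fold change was 0.30 and the adjusted p was 0.0591. In cKO it was at 138, 154, 172 and 150 CPM after sham and at 169, 174, 163 and 179 CPM after TAC, and these groups overlapped (log2 fold change 0.16, SE 0.10, adjusted p = 0.25). Scaled by library totals alone, which brings the median of all genes from 0.0034 to 0.20, the cKO value was 0.36 with an adjusted p of 0.0188.

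Plod3, a lysyl hydroxylase that also adds sugars to hydroxylysine, was at 48.9, 42.2, 50.2 and 38.5 CPM in WT sham and at 73.1, 54.9, 55.2 and 59.1 CPM in WT TAC. It rose 1.35-fold (log2 fold change 0.43, SE 0.12, adjusted p = 0.0242). This call was lost without WT sham replicate 2, WT sham replicate 4 or WT TAC replicate 1, with adjusted p values of 0.0585, 0.0791 and 0.115. In cKO it was at 53.1, 63.5, 57.3 and 53.3 CPM after sham and at 90.1, 90.4, 65.1 and 72.4 CPM after TAC, a 1.40-fold rise (log2 fold change 0.48, SE 0.12, adjusted p = 0.00744). Both genotypes were separate between operations.

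P4ha1 and P4ha3 are alternative catalytic subunits of collagen prolyl 4-hydroxylase. P4ha1 missed the threshold after TAC in both genotypes and P4ha3 passed it in both, and the difference between the subunits was not tested. P4ha1, the main subunit in most tissues, was at 42.9, 66.2, 77.3 and 43.5 CPM in WT sham and at 92.5, 67.2, 87.0 and 80.1 CPM in WT TAC, which overlapped (log2 fold change 0.51, SE 0.20, adjusted p = 0.0895). It passed without WT sham replicate 3, at 0.68 and an adjusted p of 0.0255, without cKO sham replicate 2, at 0.51 and 0.0471, and without the 2 atrial-rich WT libraries, at 0.69 and 0.039. In cKO it was at 61.2, 113, 76.9 and 74.6 CPM after sham and at 84.1, 105, 90.9 and 98.9 CPM after TAC (log2 fold change 0.22, SE 0.19, adjusted p = 0.448), where cKO sham replicate 2 exceeded every TAC library.

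P4ha3, the rarest of these subunits, had 0, 4, 8 and 2 raw counts in WT sham and 54, 12, 18 and 26 in WT TAC. The library with 0 counts allows up to 0.229 CPM, the level of 3 counts, for counting error alone. In CPM the WT groups ran from 0 to 0.591 and from 0.917 to 3.59 without overlap, and the rise was 6.65-fold (log2 fold change 2.73, SE 0.65, adjusted p = 0.00915). On these few counts the log2 value was 2.16 without WT TAC replicate 1, 3.50 without WT sham replicate 3 and 3.57 without the 2 atrial-rich libraries. In cKO it had 5, 10, 3 and 2 counts after sham and 89, 46, 27 and 50 after TAC, a 9.55-fold rise (log2 fold change 3.25, SE 0.59, adjusted p = 0.000798). In the upstream windows shown earlier, P4ha1 holds 1 ACGTG, found in 16.6% of all windows, and P4ha3 none of the 3 motifs. A part of these letters in the TAC values was not tested.

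Levels per kilobase of exon show how far each family changed its make-up. Loxl1 held 76.1% ± 3.76 of summed lysyl oxidase CPM per kb in WT sham and 63.9% ± 3.36 in WT TAC, and 74.3% ± 3.18 and 54.1% ± 6.38 in cKO (SD, n = 4). Lox held 4.22, 4.78, 4.96 and 4.79% in the WT sham libraries and 15.6, 9.62, 13.2 and 11.0% in WT TAC, with no overlap. Its share was 6.80, 8.60, 4.75 and 8.35% in cKO sham and 30.1, 22.1, 15.1 and 20.1% in cKO TAC. The whole oxidase family summed to 22.7 ± 5.48 CPM per kb after sham and 63.3 ± 15.0 after TAC in WT, and to 31.9 ± 10.3 and 122 ± 40.4 in cKO.

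In the hydroxylase families the dominant gene kept its place. Plod1 held 52.8% ± 0.874 of lysyl hydroxylase CPM per kb after sham and 53.0% ± 3.53 after TAC in WT, and 56.3% ± 2.88 and 47.7% ± 4.34 in cKO. Plod2 held 17.0% ± 2.29 and 16.0% ± 3.26 in WT and 12.4% ± 1.74 and 19.5% ± 2.35 in cKO, and its cKO libraries did not overlap between operations. Among the prolyl 4-hydroxylase subunits P4ha1 held 59.6 to 64.6% on average in the 4 groups and P4ha2 most of the rest, while P4ha3 went from 0.320% to 1.75% in WT and from 0.329% to 2.97% in cKO. P4ha3 was the smallest part of its family in every group.

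**Figure D3:**
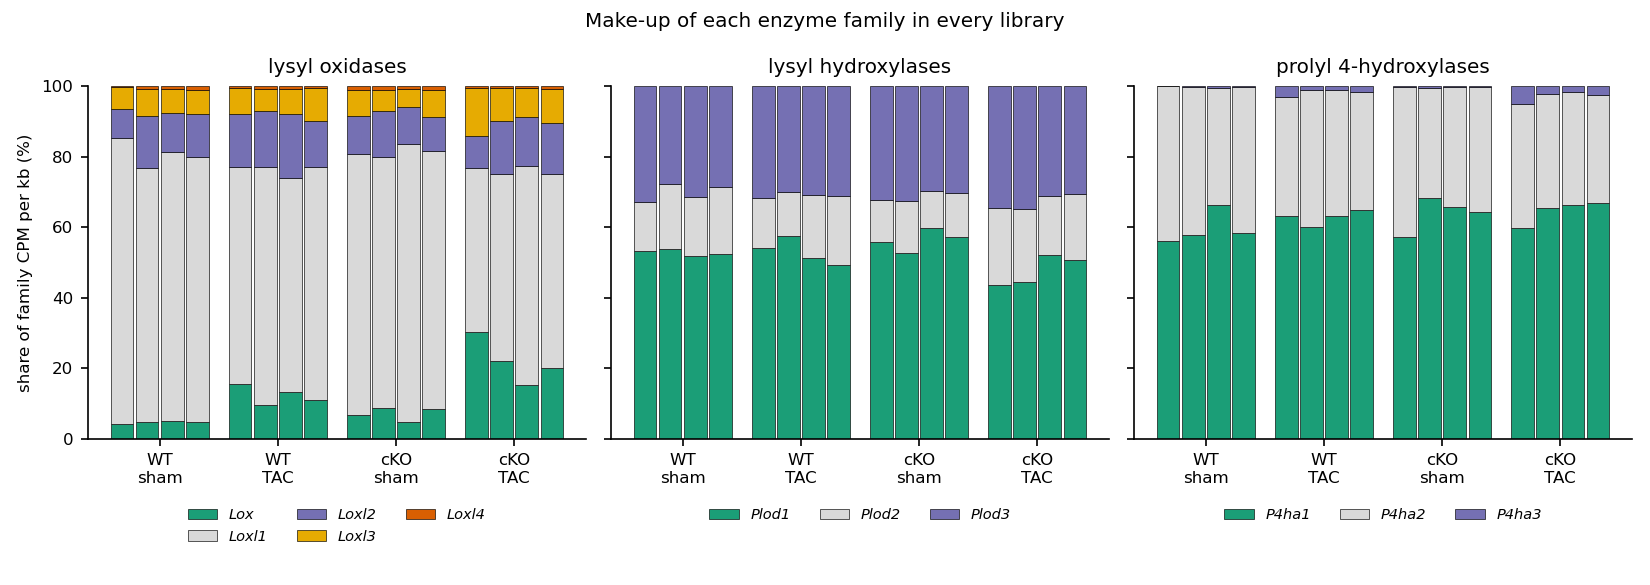
Share of each gene in the summed CPM per kb of its family (vertical axis, percent), with 1 bar per library, in replicate order within each of the 4 groups. The Lox segment is larger in every TAC library than in any sham library, and the Plod and P4ha families keep Plod1 and P4ha1 as the largest segment.

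Fibrillar collagen transcripts, the substrate, rose as well, so each enzyme was also expressed per 1000 counts of Col1a1, Col1a2 and Col3a1 together. These 3 collagens rose in both genotypes: the log2 fold change of Col1a1 was 2.03 (SE 0.29, adjusted p = 0.000367) in WT and 2.41 (SE 0.29, adjusted p = 7.13e-05) in cKO. Lox was at 9.17, 9.06, 10.0 and 8.27 per 1000 in WT sham and at 22.2, 13.4, 20.5 and 14.6 in WT TAC. It was at 13.0, 13.7, 11.8 and 12.8 per 1000 in cKO sham and at 44.4, 33.2, 22.4 and 23.8 in cKO TAC. Per collagen count Lox was higher without overlap in all 4 pairwise comparisons. In cKO TAC against WT TAC, where 0.0526% of all tested genes were higher without overlap, the margin was narrow, from 22.2 to 22.4 per 1000. The corresponding background was 0.132% for TAC in WT, 0.164% for TAC in cKO and 0.23% for cKO sham against WT sham. No test was made of these ratios.

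The other members did not share this pattern in all comparisons. P4ha3 was higher relative to collagen in cKO TAC than in cKO sham, at 0.983, 0.747, 0.652 and 0.691 against 0.560, 0.476, 0.336 and 0.181 per 1000, and its WT groups overlapped. Loxl2 was at 25.1 ± 4.83 per 1000 after sham and 25.2 ± 4.89 after TAC in WT, and at 23.2 ± 5.17 and 20.9 ± 4.57 in cKO, with overlap in all 4 comparisons. Loxl3 overlapped in all 4 comparisons too. Loxl1, Plod1, Plod2, Plod3 and P4ha1 were lower per collagen count after TAC in WT, and these 5 and Loxl4 were lower in cKO. Most genes were lower on this scale: 91.2% of tested genes were lower without overlap in WT and 93% in cKO.

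Between genotypes, Plod2 was lower per collagen count in cKO sham than in WT sham, at 39.9, 25.3, 36.7 and 34.0 against 51.7, 64.7, 44.0 and 61.3 per 1000, where 7.69% of genes were lower without overlap. Plod3 was lower in cKO TAC than in WT TAC, where 21.6% of genes were; with Col1a1 alone as the denominator its groups overlapped.

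**Figure D4:**
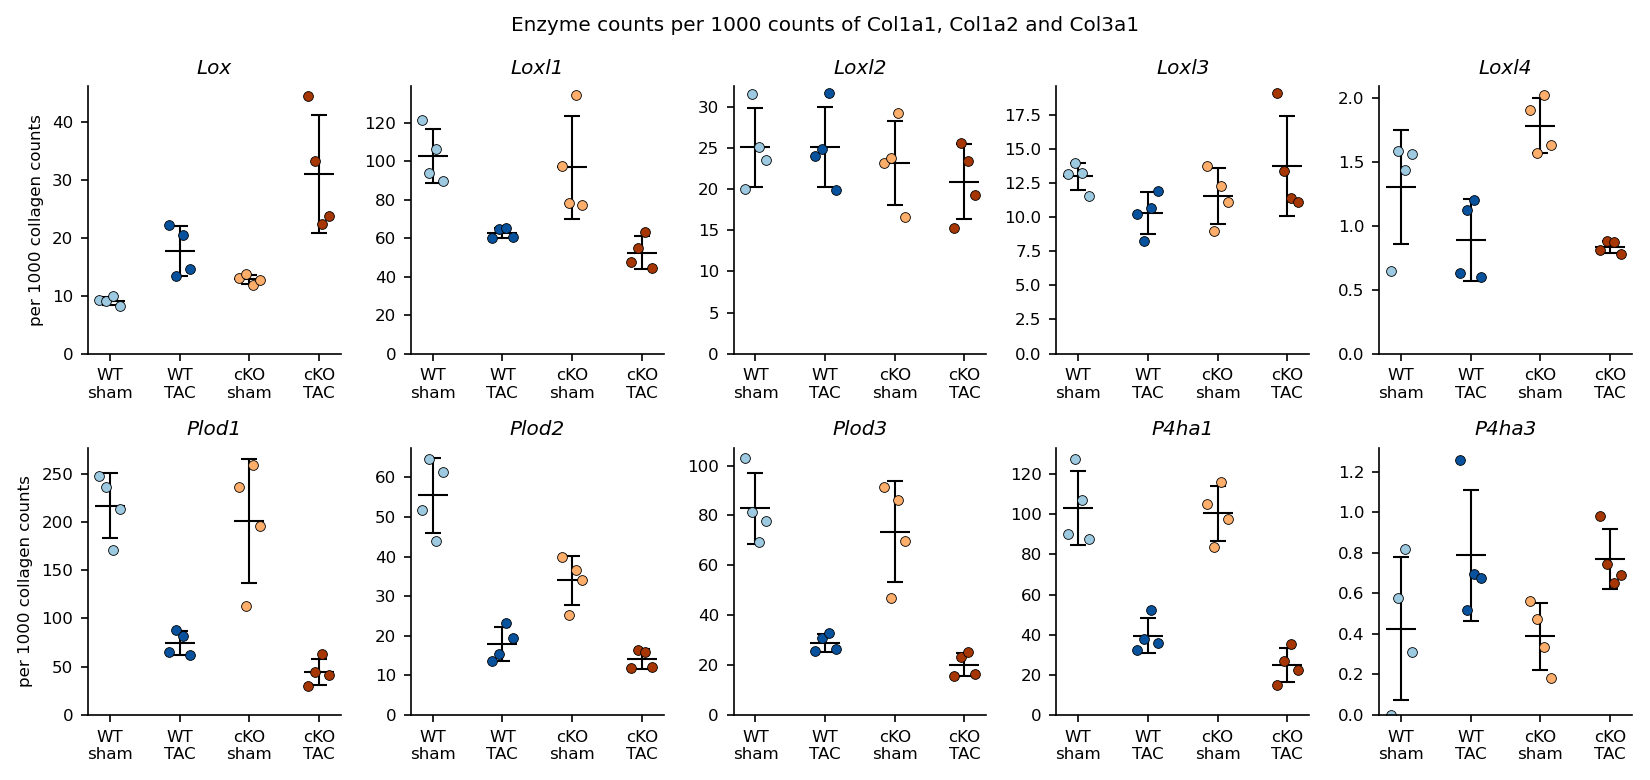
Counts of each enzyme per 1000 counts of Col1a1, Col1a2 and Col3a1 together (vertical axis, linear, from 0) in each library, with the mean and 1 SD (n = 4). Lox is the member whose points lie higher after TAC in both genotypes, the Loxl2 groups overlap, and Plod1, Plod2, Plod3 and P4ha1 lie lower after TAC.

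In cKO sham against WT sham, 0 of the 10 members passed in edgeR, where 1.17% of all genes were called, 0.618% higher and 0.552% lower. The unadjusted p was under 0.05 for 4 members, and for 2284 of 15206 tested genes. DESeq2 called 1 member and 546 genes in all, and limma voom called 0 members. Lox, Loxl4, Plod1 and Plod3 were higher without overlap, where 4% of all genes were higher and 3.59% lower without overlap. The log2 differences were 1.10 (95% interval -0.02 to 2.22) for Lox, 0.98 (0.23 to 1.73) for Loxl4, 0.39 (0.17 to 0.60) for Plod1 and 0.34 (0.07 to 0.61) for Plod3. The member that DESeq2 called was Plod1, with an adjusted p of 0.0158, and it also passed in edgeR without WT TAC replicate 1, with 0.0351. Plod2 was the only member with a negative value, -0.16 (-0.53 to 0.22).

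After TAC, 1 of the 10 members, Loxl3, passed the test, where 1.78% of all genes were called, 0.598% higher and 1.18% lower. Loxl3 was 2.70-fold higher in cKO TAC than in WT TAC (log2 fold change 1.43, SE 0.34, adjusted p = 0.0485). This call rested close to the threshold: it was kept when WT sham replicate 1, WT TAC replicate 1, cKO sham replicate 2 or cKO TAC replicate 3 was left out, and lost for each of the other 12 libraries, with values of 0.96 to 1.53. It was also lost without the 2 atrial-rich WT libraries, at 1.54 and an adjusted p of 0.0695. Lox was 3.53-fold higher (log2 fold change 1.82, SE 0.43) at an adjusted p of 0.053, and it passed without WT TAC replicate 1, without cKO sham replicate 2 or without cKO TAC replicate 3, with 0.0276, 0.0465 and 0.0111. Loxl4 was higher without overlap, at 4.60, 3.41, 2.25 and 3.39 CPM against 1.79, 1.99, 2.01 and 1.34 CPM, but did not pass (log2 fold change 0.94, SE 0.29, adjusted p = 0.0932). Loxl3 and Loxl4 were the 2 members without overlap, where 4.89% of all genes were higher and 5.11% lower without overlap.

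All 10 members had a positive value in cKO TAC against WT TAC, from 0.15 for Plod1 to 1.82 for Lox, with a median of 0.66. The unadjusted p was under 0.05 for 7 of them, and for 2643 of 15206 tested genes. DESeq2 called 5 members (Lox, Loxl1, Loxl3, Loxl4 and Plod2) and 838 genes in all. The members that limma voom called were 2 (Lox and Loxl3). The adjusted p of Lox ran from 0.00388 to 0.108 over the alternatives of scaling, filter and tool, and that of Loxl3 from 0.00065 to 0.117. Leaving out cKO TAC replicate 3, the lowest of its group for 9 of 10 members, raised the count of members in edgeR to 5. It added Lox, Loxl4 (1.09), Plod2 (0.74) and Plod3 (0.48). The count over all tested genes rose as well in that fit, from 271 to 912. Leaving out WT TAC replicate 1 raised the count of members to 3, adding Lox and Plod3 (0.49), and leaving out cKO sham replicate 2 raised it to 2.

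Averaged over both operations, with all 16 libraries, 6 members were higher in cKO and none lower, where 9.06% of all genes were called, 4.21% higher and 4.85% lower. They were Lox (log2 fold change 1.46, SE 0.33, adjusted p = 0.0183), Loxl4 (0.96, SE 0.22, adjusted p = 0.0142), Loxl3 (0.90, SE 0.25, adjusted p = 0.0413), Loxl1 (0.56, SE 0.16, adjusted p = 0.0412), Plod3 (0.37, SE 0.09, adjusted p = 0.0151) and Plod1 (0.27, SE 0.07, adjusted p = 0.0245). Lox, Loxl4 and Plod3 passed whichever library was left out. Loxl1 was kept only without WT sham replicate 3, WT TAC replicate 1, cKO sham replicate 1, cKO sham replicate 4 or cKO TAC replicate 3, and Loxl3 only without WT sham replicate 3, WT TAC replicate 1, cKO TAC replicate 1 or cKO TAC replicate 3. Both calls were also lost with no filter on low counts (adjusted p of 0.127 for Loxl1 and 0.104 for Loxl3) and with the replicate number as a block (0.0614 and 0.0562), and that of Loxl3 with limma voom (0.0627). Plod1 was lost without WT sham replicate 4, WT TAC replicate 2, 3 or 4, cKO TAC replicate 2 or cKO TAC replicate 4, and P4ha1 passed without WT sham replicate 3 (0.45, adjusted p = 0.0389). Without the 2 atrial-rich WT libraries Plod1 was at 0.25 with an adjusted p of 0.0504.

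Other genes moved in the same averaged contrast. Of 7 fibrillar collagen chains, 5 rose and none fell, with a median of 0.74 beside -0.0059 over all genes. Of 6 resident fibroblast markers Pdgfra rose (0.41, SE 0.09, adjusted p = 0.0123). Of 5 macrophage markers Adgre1 (0.50, SE 0.13, adjusted p = 0.0271) and Csf1r (0.41, SE 0.11, adjusted p = 0.0305) rose. Of 5 activated fibroblast markers 0 passed, with 3 positive values and a median of 0.043. None of 5 endothelial and 5 mural markers passed. Of 6 cardiomyocyte markers, Actn2 (-0.30, SE 0.07, adjusted p = 0.0112) and Tnni3 (-0.57, SE 0.15, adjusted p = 0.0222) fell. Of 4 tested atrial markers 3 fell (Myl7, Myl4 and Sln), and Nppa was at 1.20 and did not pass. The atrial transcripts were high in WT sham replicate 3 and WT TAC replicate 4, as described earlier. F13a1 and Tgm2, transglutaminases that crosslink matrix by another reaction, rose by 0.69 (adjusted p = 0.0155) and 0.58 (adjusted p = 0.016). The part of these genes in the enzyme values was not tested.

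The difference between the TAC responses of the genotypes, tested as an interaction, passed for 0 of the 10 members in edgeR, and for 0% of all tested genes. The unadjusted p was under 0.05 for 1 member and for 715 genes in all. DESeq2 called 0 members and 3 genes, and limma voom called 0 members. That member was Plod2, whose TAC response was larger in cKO by 0.77 on the log2 scale (SE 0.24, 95% interval 0.25 to 1.29, edgeR adjusted p = 0.946). Loxl3 had 1.08 (-0.02 to 2.17) and Lox 0.72 (-0.74 to 2.18). The intervals of the other members also include 0, the widest being that of P4ha3 (-1.60 to 2.64). The larger folds of Lox and Loxl3 in cKO are thus not shown to differ from those in WT.

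The libraries of a group varied together across members. WT sham replicate 3 was the highest of its group for 9 of the 10 members, all but Plod2. WT TAC replicate 1 was the highest for 8 members, cKO sham replicate 2 for 9 and cKO TAC replicate 1 for 6, while cKO TAC replicate 3 was the lowest for 9. The summed CPM of Col1a1, Col1a2 and Col3a1 followed the same libraries: 723 in WT sham replicate 3, 2854 in WT TAC replicate 1, 1359 in cKO sham replicate 2 and 5714 in cKO TAC replicate 1, each the highest of its group, and 2587 in cKO TAC replicate 3, the lowest of its group. The mitochondrially encoded share of counts was also highest in cKO TAC replicate 3, at 20.4%, against 16.1 to 16.3% in the others of its group. What part these library differences have in the genotype results was not tested.

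Cell type markers moved with the operations as well. Of 5 activated fibroblast markers, 2 rose in WT (Postn and Cthrc1) and 4 in cKO (Postn, Cthrc1, Comp and Fap). Their summed level was 139 to 293 CPM after sham and 440 to 746 after TAC in WT, and 222 to 286 and 810 to 1925 in cKO, and only Cthrc1, in 1 cKO sham library, was at 0. Of 6 resident fibroblast markers, 1 rose in WT (Tcf21), and 3 rose (Pdgfra, Tcf21 and Pi16) and 1 fell (Gsn) in cKO. Their sum was 1643 to 2409 CPM after sham and 1306 to 2948 after TAC in WT, with none at 0. In cKO it was 1768 to 2340 and 1583 to 1768, again with none at 0. Gsn weighs heavily in the cKO sums, at 1162 to 1562 CPM after sham and 588 to 920 after TAC. Of 6 cardiomyocyte markers, 1 fell in WT and 4 in cKO, and their sum was 48650 to 58780 CPM after sham and 38319 to 47196 after TAC in WT, and 45726 to 54378 and 27723 to 41675 in cKO. Of 5 macrophage markers, 3 rose in WT and 4 in cKO, none was at 0, and their sum was 108 to 180 CPM after sham and 189 to 260 after TAC in WT, and 134 to 244 and 242 to 358 in cKO. Acta2, the fifth activated fibroblast marker, passed in neither genotype, at 0.31 in WT and -0.54 in cKO. The part of these markers in the enzyme results was not tested, and in bulk tissue more cells of a type and more RNA per cell cannot be told apart.

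The genes whose centred profile over the 16 libraries lay closest to each member were listed by rank. Closeness was the root mean square difference of centred log2(CPM + 1) over 13288 compared genes, where 0 means the same profile. For Lox the closest were Col8a1 (0.32), Postn (0.41) and Cilp (0.42), beside a median of 1.74 over all genes. For Loxl1 they were Igfbp7, Col6a2 and Emilin1 (0.17, 0.18 and 0.18, median 0.80), for Loxl2 Emp1, Fbn1 and Fstl1 (0.17, 0.19 and 0.25, median 1.10), and for Loxl3 Col14a1, Fn1 and Col1a2 (0.23, 0.26 and 0.26, median 1.17). For P4ha3 they were Enpp1, Srpx2 and Col6a1 (0.20, 0.20 and 0.23, median 0.82). Emilin1 and Fbn1 are components of the elastic fibre and its microfibrils, and Fn1 is fibronectin.

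The lysyl hydroxylases and P4ha1 had other neighbours. Plod2 lay closest to Lhfp, Tgfbr1, a receptor for TGF-beta, and Itgav (0.16, 0.18 and 0.18, median 0.49). Plod3 lay closest to Zmat3, P4hb and Rpl3 (0.11, 0.11 and 0.12, median 0.38), and Plod1 to Ccnd3, Cd63 and Capn2 (0.09, 0.11 and 0.11, median 0.32). The chaperones Hsp90aa1 and Pdia4 were among the genes closest to P4ha1 (0.16 and 0.16, median 0.44), and Loxl4 lay closest to Adam9, Sorbs2 and Masp1 (0.17, 0.17 and 0.18, median 0.56). Genes with small changes have small distances to many genes, so these values are compared within a member only. The 1 added to each CPM shrinks the profiles of P4ha3 and Loxl4, which reached at most 5.61 and 4.60 CPM. After TAC in WT the genes closest to P4ha3 rose by 1.18 to 1.34 on the log2 scale, against 2.73 for P4ha3. Those closest to Loxl4 rose by 0.44 to 0.83, against 1.26 for Loxl4.

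Substrates and partners gave the setting of the 10 enzymes. Of 7 fibrillar collagen chains, 6 rose after TAC in WT and 7 in cKO, none fell, and the medians were 1.92 and 2.30. Of 10 elastic fibre and oxidase cofactor genes, 8 rose in WT and 9 in cKO, none fell, with medians of 1.23 and 1.78. Elastin itself, Eln, rose by 1.57 (SE 0.37, adjusted p = 0.0121) in WT and by 2.36 (SE 0.38, adjusted p = 0.000664) in cKO. Fbn1, the microfibril protein fibrillin-1, rose by 1.59 in WT and 2.11 in cKO. Between genotypes after TAC, 1 of the 10, Fbln2, passed (0.89, SE 0.22, adjusted p = 0.0474).

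Of 7 tested procollagen processing genes, 3 rose in WT and 4 in cKO and none fell, with medians of 0.57 and 0.76. Bmp1, the protease that also activates the Lox proenzyme, rose by 0.57 (SE 0.10, adjusted p = 0.000756) in WT and by 0.76 (SE 0.10, adjusted p = 4.97e-05) in cKO, less than Lox. Adamts2, which removes the collagen N-propeptide, rose by 1.55 in WT and 1.83 in cKO, and it was the 1 processing gene that passed in cKO TAC against WT TAC (0.90, SE 0.20, adjusted p = 0.0354). Pcolce, which enhances the removal of the procollagen C-propeptide by Bmp1, rose by 1.00 in WT and 0.98 in cKO.

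The intracellular partners changed less. Of 12 genes of prolyl 3-hydroxylation and collagen chaperoning, 5 rose and 1 fell in WT and 7 rose and 1 fell in cKO, with medians of 0.37 and 0.51. P3h3 rose by 0.88 in WT and by 1.14 in cKO, Serpinh1, the collagen chaperone Hsp47, by 0.74 and 0.65, and P3h4 fell by 0.48 and by 0.34. Fkbp10, which binds Plod2 and supports telopeptide hydroxylation, rose by 0.40 (SE 0.12, adjusted p = 0.0273) in WT and by 0.76 (SE 0.12, adjusted p = 0.000226) in cKO. Of the 2 hydroxylysine galactosyltransferases, Colgalt1 rose by 0.33 in WT and 0.43 in cKO, and Colgalt2 rose by 0.39 in cKO and was at -0.11 in WT; that difference did not pass as an interaction (0.50, SE 0.19, adjusted p = 0.946).

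P4hb, the protein disulfide isomerase that forms the beta subunit of prolyl 4-hydroxylase, was the gene of this group that rose in every pairwise comparison. It was at 201, 203, 214 and 194 CPM in WT sham and at 251, 304, 271 and 262 CPM in cKO sham, without overlap (log2 fold change 0.42, SE 0.09, adjusted p = 0.0271). It rose by 0.34 (adjusted p = 0.0164) after TAC in WT, by 0.30 (adjusted p = 0.0208) after TAC in cKO, and was 0.38 higher (adjusted p = 0.0406) in cKO TAC than in WT TAC. P4ha2, the third alpha subunit, passed in none of these, with values of 0.28 and 0.09 for TAC in WT and cKO.

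Copper supply and the hypoxia and TGF-beta programmes that can raise these enzymes were read in the same fit. Of 5 tested copper delivery genes, 0 passed in edgeR in either genotype after TAC, with medians of 0.039 and 0.018, and the unadjusted p was under 0.05 for 0 in WT and for 1, Slc31a2, in cKO; Atp7a, the pump that loads copper into lysyl oxidases, was at 0.22 (SE 0.39) in WT and 0.64 (SE 0.37) in cKO. Of 13 hypoxia genes, 0 rose and 1 fell in WT, and 2 rose (Hif1a and Slc2a1) and 1 fell in cKO, where 15.8% and 26.5% of all genes were called; the one that fell in both was Egln1, by 0.50 and by 0.70. Of 8 TGF-beta targets, 3 rose in WT and 5 in cKO, Ltbp2 and Ccn2 among them in both, with medians of 0.70 and 0.67. Ltbp2, a binding protein of the elastic fibre, rose by 2.81 in WT and by 4.11 in cKO. Of 3 tested genes of other crosslinking enzymes, Pxdn, the peroxidase that joins collagen IV by sulfilimine bonds, rose by 0.53 in WT and 0.92 in cKO, and Tgm2 and F13a1 did not pass after TAC.

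**Figure D5:**
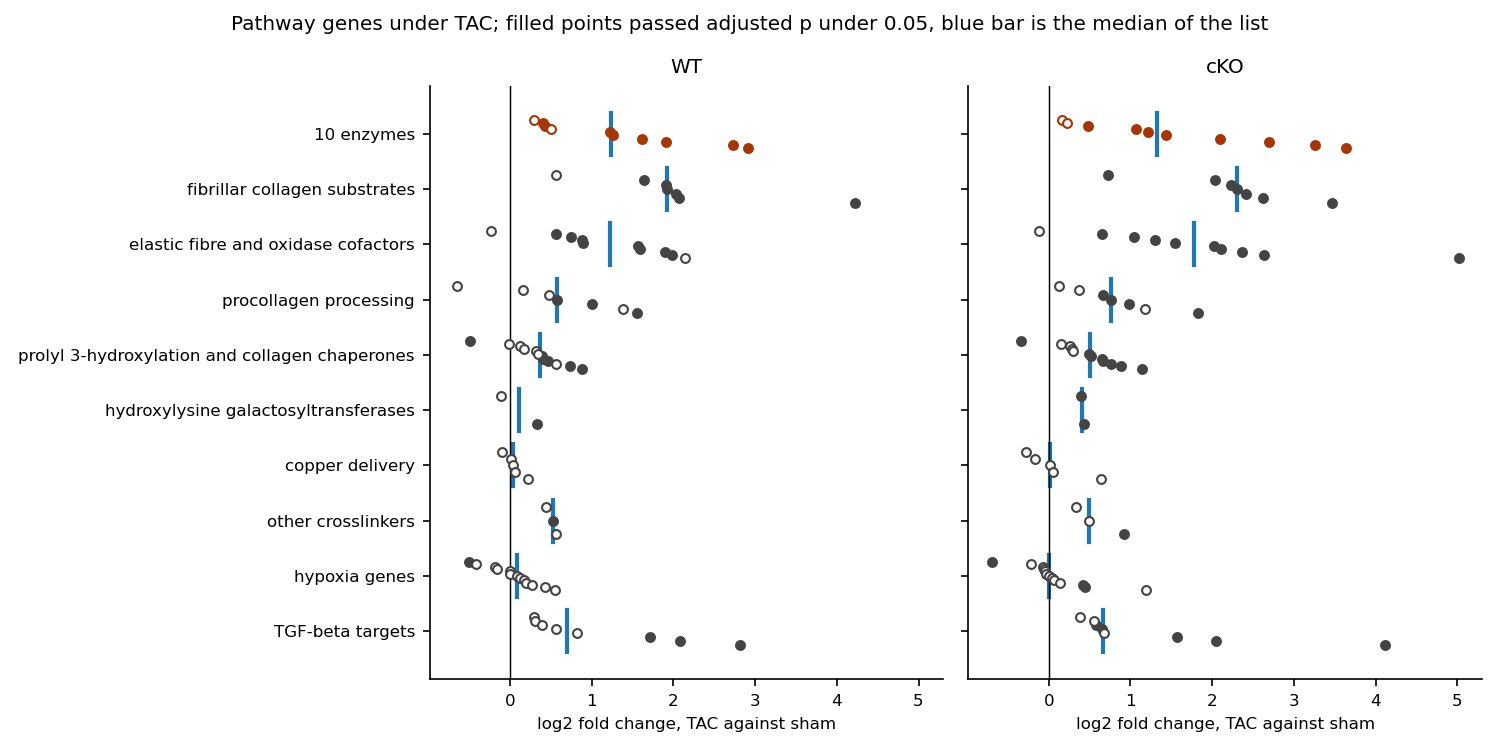
Log2 fold change of TAC against sham (horizontal axis) in WT (left) and cKO (right) for the 10 enzymes and for 9 lists of pathway genes; each point is a gene, filled where adjusted p was under 0.05, and the bar is the list's median. The medians of the collagens, elastic fibre genes and 10 enzymes lie above 1 in both genotypes, and those of copper delivery and hypoxia genes lie near 0.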

How the data were processed

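The values are raw, unnormalized counts by Ensembl gene, as deposited, for 16 libraries of left ventricle RNA. Per the submitters' processing notes, the tools were featureCounts 2.0.6, HISAT2 2.0.5, SAMtools 1.21, fastp 0.22.0 and FastQC, and the build was GRCm39; the annotation release, strandedness and the handling of multimapping reads are not given in the sources used here, so antisense and overlapping genes cannot be told apart. Symbols were found for 51880 of 57186 gene IDs. Libraries were grouped by the genotype and treatment labels. Genes were filtered with filterByExpr, scaled by TMM and tested with edgeR 4.0.16 (R 4.3.3; robust quasi-likelihood F-test) in 1 fit of all 16 libraries, with Benjamini-Hochberg adjustment over 15206 genes. CPM is a gene's count scaled to the library's total over tested genes times its TMM factor. The SE is the absolute log2 fold change divided by the square root of the test's F. Intervals use this SE with 12 residual degrees of freedom. The F-test adds prior degrees of freedom, so the intervals need not match its p-values exactly. Exon lengths come from GENCODE M21 on GRCm38, which is not the build of the counts. DESeq2 1.42.0 and limma 3.58.1 (voom) were alternatives, beside other scalings and filters, the compared groups alone, no mitochondrial genes, a replicate block and leaving out libraries. The fit was tested on simulated counts. Library totals of 12946878 to 16347388 counts bound the precision for Loxl4 and P4ha3, and such limits cover counting error only.

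The members and gene lists were chosen with earlier results of these data known. All 10 members were named, with Tfeb, Col1a1, Eln, P4ha2 and P4hb, for each list at most 4 genes ranked by adjusted p in a comparison, and the 3 nearest genes of each member, except that some genes this rule selects are not reported here; the cell type markers were named after their values were seen.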

Additional observations from a re-analysis of the deposited data

Results flagged for a closer look

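A sample was looked at again where its gap to the nearest of the other 3 exceeded Dixon's 95% critical share of the group's range. This was so for 4 of 128 groups of values checked, and chance flags about 1 in 20 groups. Loxl3 in cKO sham replicate 2 was at 12.2 CPM, with the next library at 8.51. Loxl4 per 1000 fibrillar collagen counts in WT sham replicate 1 was at 0.644, with the next at 1.43, on 4 raw counts. The summed CPM of atrial markers in WT sham replicate 3 was 3613, with the next at 298. The mitochondrially encoded share in cKO TAC replicate 3 was 20.4%, with the next at 16.3%.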

How the results depend on the processing

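The TAC results were stable in number: the members past the threshold were 6 to 9 in WT and 8 in cKO over the 16 fits that each left out 1 library, and no member's TAC value changed sign in any fit. In cKO sham against WT sham the count was 0 to 1 over those 16 fits and 1 with DESeq2. In cKO TAC against WT TAC it was 0 to 5 over those fits, 0 with library totals, without a filter on low counts, with the replicate block, with the compared groups alone and without the 2 atrial-rich WT libraries, 2 with at least 1 CPM in 4 libraries or limma voom, and 5 with DESeq2. Averaged over both operations it was 3 to 7 over those fits. With Col1a1 alone as the denominator, 0 members were lower per collagen count in cKO TAC than in WT TAC. The causes were not tested.

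Values that turned sign were all under the threshold. The interaction of Loxl4 was 0.042 with library totals, and without the 2 atrial-rich libraries those of Loxl2, Plod3 and P4ha3 were -0.051, -0.016 and -0.32. Leaving out 1 library gave -0.25 to 0.21 for Loxl4, -0.023 to 0.15 for Plod3, -0.24 to 1.09 for P4ha3, and -0.19 to 1.11 for P4ha3 in cKO sham against WT sham. Library totals brought the median of all genes after TAC from -0.015 to 0.11 in WT and from 0.0034 to 0.20 in cKO. The count over all genes was 1234 to 2477 for TAC in WT (lowest without WT TAC replicate 1), 59 to 222 for cKO against WT after sham (546 with DESeq2) and 13 to 912 after TAC (838 with DESeq2, 165 without the 2 atrial-rich libraries), and for the interaction 3 with DESeq2 and 2 without those libraries. The labels do not say whether the replicate numbers pair the libraries. The 24 same-numbered pairs had correlations of -0.20 to 0.29, 5 of them over 0.1. Differently numbered pairs ran from -0.35 (WT TAC replicate 1 with cKO TAC replicate 3) to 0.27 (WT sham replicate 1 with cKO sham replicate 3). Such correlations cannot exclude a pairing or a shared batch. With the replicate block 8, 8, 0, 0, 0 and 4 members passed in TAC in WT, TAC in cKO, cKO against WT after sham and after TAC, the interaction and the average. Depth limits Loxl4 and P4ha3 most.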
